A study of Bos taurus with 52 samples.

Results

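The genes described are the 8 fibrillar and type VI collagen chain genes COL1A1, COL1A2, COL3A1, COL5A1, COL5A2, COL6A1, COL6A2 and COL6A3, and LOX, the gene of lysyl oxidase. They are 9 of 31651 named genes in a count table of 52 RNA sequencing libraries from cattle, and were taken by name. They were chosen by their measured pregnancy changes, which differed between the 2 fertility classes in earlier results of the same libraries, so comparisons of pregnant with non-pregnant endometrium, and of those classes with each other, are given for them as a description. Counts of calls in those contrasts describe the choice and support nothing.

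Collagens are the main structural proteins of connective tissue, and in the uterus most are made by stromal fibroblasts. Types I, III and V are fibrillar: their chains fold into triple helices that are trimmed outside the cell and assemble into banded fibrils. Type VI forms beaded microfilaments around cells, and lysyl oxidase links fibrillar chains to each other covalently. In ruminants the conceptus elongates in the uterine lumen before it attaches, while the endometrium beneath it changes its glands, stroma and gene expression.

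The animals were heifers of 3 fertility classes, abbreviated IF (infertile), SF (subfertile) and HF (high fertile). Endometrium came from 5 groups with 5 animals each. NP-IF, NP-SF and NP-HF are the groups without pregnancy, and P-SF and P-HF are pregnant animals at day 17. The labels used here give no cycle day for animals without pregnancy, no ages and no breed beyond heifer cow. Conceptuses of day 17 came from SF heifers (C-SF, 10 libraries) and from HF heifers, where they were classed as long (C-HF-long, 10) or short (C-HF-short, 7). These 27 conceptuses came from the uteri of 19 recipient heifers, so some libraries of a group share a recipient. Libraries held 17.1 to 27.3 M counts in endometrium and 20.5 to 47 M in conceptuses. The uterine transcription factor gene HOXA11 was at 54.0 to 134 CPM (normalised read counts, scaled to the same library total) in NP-HF, P-HF and P-SF endometrium and at most 0.185 CPM in conceptuses, and CDX2, which marks trophectoderm, was at 11 to 29.4 CPM in conceptuses and at most 0.566 CPM in those endometrial groups.

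The first question was how these genes stood in the endometrium of HF heifers at day 17. All 9 were lower in P-HF than in NP-HF. The fibrillar chains of types I and III differed most, and COL3A1, the single chain of type III collagen, was 3.69-fold lower. Together the 9 genes took 1.19% to 2.46% of all counts in NP-HF and 0.301% to 0.655% in P-HF, with 0.618% to 1.03% in P-SF, 1.08% to 1.56% in NP-SF and 0.893% to 1.51% in NP-IF. The ranges of P-HF and NP-HF did not meet.

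**Figure D1:**
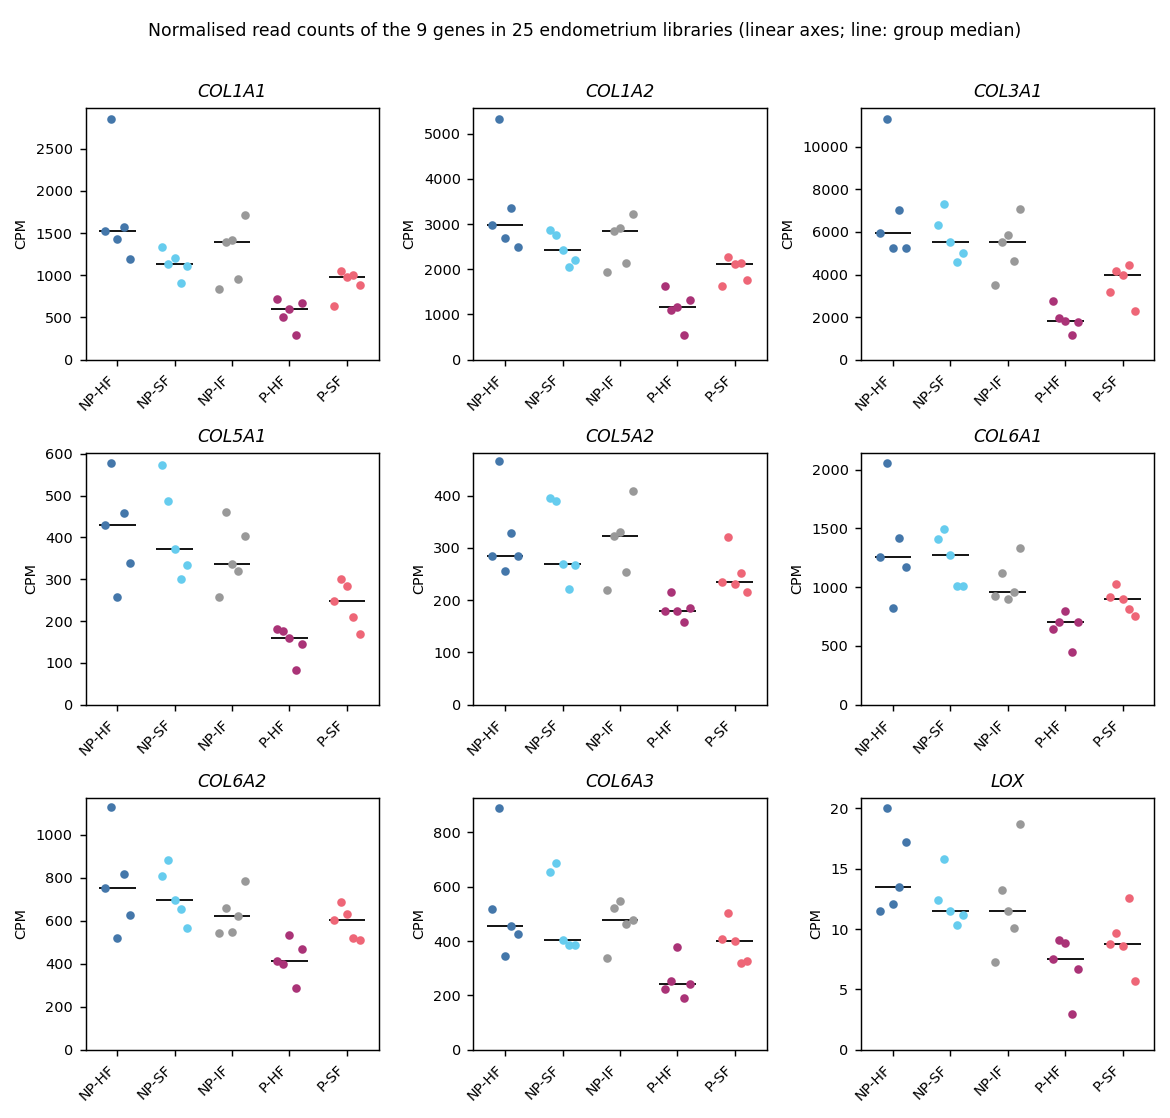
Normalised read counts (CPM, linear axes from 0) of the 9 genes in each of 25 endometrium libraries, with 5 animals per group and a line at the group median. The P-HF median is the lowest of the 5 groups for each gene, and NP-HF replicate 2 is the highest point of its group in all 9 panels.

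COL1A1 encodes the alpha 1 chain of type I collagen, the most widespread fibrillar collagen. In NP-HF replicates 1 to 5 it was at 1530, 2853, 1434, 1571 and 1187 CPM, and in P-HF at 715, 506, 605, 286 and 667 CPM. In NP-SF it was at 1338, 1136, 1205, 907 and 1107 CPM, and in P-SF at 639, 1052, 977, 1000 and 886 CPM. The HF groups did not overlap, whereas 3 of 5 P-SF values lay above the lowest NP-SF value. The log2 fold change on pregnancy was -1.63 ± 0.24 (SE, 5 against 5 animals) in HF and -0.32 ± 0.24 in SF.

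COL1A2, which encodes the other chain of type I collagen, gave nearly the same picture. It was at 2982, 5330, 2685, 3355 and 2496 CPM in NP-HF and at 1625, 1094, 1165, 543 and 1328 CPM in P-HF. In SF heifers it was at 2863, 2770, 2437, 2057 and 2202 CPM without and at 1627, 2267, 2119, 2140 and 1760 CPM with pregnancy. The HF groups were apart and the SF groups overlapped, with log2 fold changes of -1.55 ± 0.23 and -0.31 ± 0.22. Every P-SF library was above every P-HF library for COL1A2, though by only a small margin at the nearest pair (1627 and 1625 CPM).

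COL3A1 was at 5931, 11315, 5227, 7039 and 5256 CPM in NP-HF and at 2753, 1953, 1813, 1142 and 1774 CPM in P-HF. It was at 6345, 7313, 5507, 4589 and 5013 CPM in NP-SF and at 3194, 4154, 3963, 4453 and 2298 CPM in P-SF. Type III collagen is laid down with type I in pliable tissues, and its gene was the only one of the 9 whose pregnant and non-pregnant libraries were apart in both classes. The log2 fold changes were -1.88 ± 0.24 in HF and -0.67 ± 0.24 in SF. The lowest P-SF library, replicate 5, lay between the P-HF values.

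Type V collagen sits inside type I fibrils and limits their diameter. COL5A1, its alpha 1 chain gene, was at 429, 577, 258, 459 and 338 CPM in NP-HF and at 180, 177, 159, 83.8 and 144 CPM in P-HF. It was at 574, 487, 372, 300 and 335 CPM in NP-SF and at 247, 301, 283, 210 and 170 CPM in P-SF. Of the 9 genes it had the largest SF change, -0.77 ± 0.23, beside -1.47 ± 0.23 in HF, and the SF groups met only at 1 library each (301 and 300 CPM). COL5A2, the alpha 2 chain gene, moved less, from at least 255 CPM in NP-HF to at most 215 CPM in P-HF (-0.82 ± 0.18), and from 221 to 395 CPM in NP-SF against 216 to 321 CPM in P-SF (-0.30 ± 0.18). Its P-SF libraries were all above its P-HF libraries, and its HF groups did not overlap.

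The 3 type VI genes each encode 1 of the chains of the microfilament. COL6A1 was at 1260, 2061, 819, 1417 and 1172 CPM in NP-HF and at 643, 707, 797, 448 and 702 CPM in P-HF. It was at 1411, 1496, 1278, 1010 and 1007 CPM in NP-SF and at 919, 1028, 901, 818 and 752 CPM in P-SF. The HF groups were apart, with 819 and 797 CPM at their nearest pair, and the SF groups overlapped at 1 P-SF library. COL6A2 ranged from 518 to 1129 CPM in NP-HF and from 285 to 532 CPM in P-HF, and COL6A3, whose chain is the longest of type VI, from 346 to 891 CPM and from 189 to 377 CPM. Both of these pairs of groups overlapped, through P-HF replicate 3 and NP-HF replicate 3. The log2 fold changes of COL6A1, COL6A2 and COL6A3 were -1.03 ± 0.19, -0.87 ± 0.18 and -1.04 ± 0.23 in HF, and -0.49 ± 0.19, -0.29 ± 0.18 and -0.36 ± 0.23 in SF.

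Lysyl oxidase acts on collagen and elastin outside the cell. LOX was at 11.5 to 20 CPM in NP-HF and at 7.5, 9.11, 8.88, 2.96 and 6.70 CPM in P-HF, groups that did not overlap. It was at 12.4, 15.8, 11.5, 10.3 and 11.2 CPM in NP-SF and at 8.76, 9.68, 8.56, 12.6 and 5.69 CPM in P-SF, where replicate 4 reached into the non-pregnant range. The log2 fold changes were -1.08 ± 0.26 in HF and -0.43 ± 0.26 in SF.

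The quasi-likelihood test of edgeR, adjusted by Benjamini-Hochberg over 19606 genes, called all 9 lower in P-HF against NP-HF, where 10.6% of all genes were called lower, and 0 in P-SF against NP-SF, where 0.887% were. The median log2 fold change of the 9 genes was -1.08 in HF and -0.36 in SF, with -0.01 over all genes in both. DESeq2 called all 9 in HF and 1, COL5A1, in SF. In HF, 7 of 9 had every pregnant library under every non-pregnant one (5.94% of all genes did), and in SF 1 of 9 (1.66%).

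**Figure D2:**
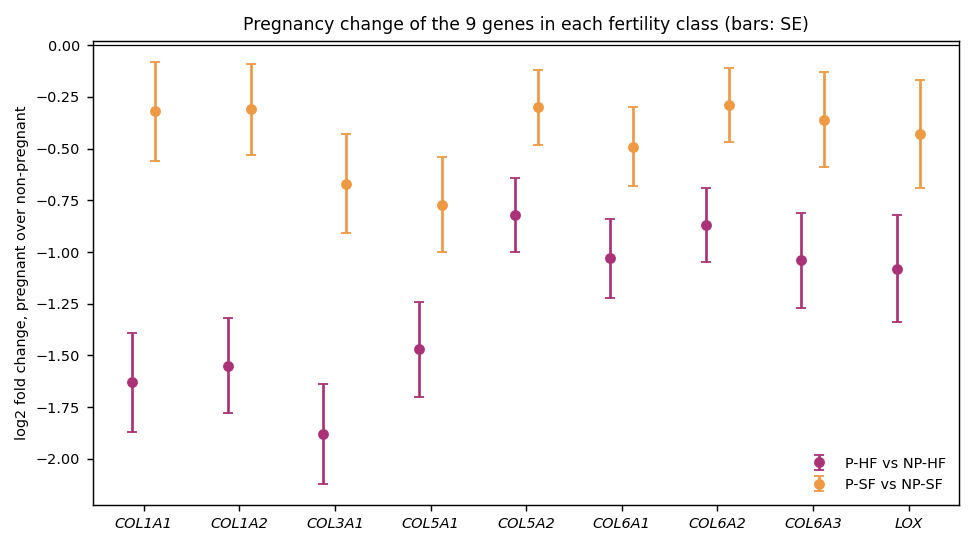
The log2 fold change of each gene from non-pregnant to pregnant endometrium (y axis), with its SE as a bar, in HF and in SF heifers (5 against 5 animals each). Each HF point is lower than the SF point of the same gene, from -1.88 in HF and -0.67 in SF for COL3A1 to -0.82 and -0.30 for COL5A2.

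The contrast that names this gene group is the difference between the classes in the pregnancy change. It was positive for all 9 genes (a smaller decrease in SF), at 1.3 ± 0.34 for COL1A1, 1.24 ± 0.32 for COL1A2, 1.21 ± 0.33 for COL3A1, 0.70 ± 0.32 for COL5A1, 0.52 ± 0.25 for COL5A2, 0.54 ± 0.26 for COL6A1, 0.59 ± 0.25 for COL6A2, 0.68 ± 0.33 for COL6A3 and 0.65 ± 0.37 for LOX. The median was 0.68, beside 0.01 over all genes. None of the 9 was called by edgeR or by DESeq2. In the whole table edgeR called 1 gene (0.0051%) and DESeq2 5. The type I chains and COL3A1 had the largest values.

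The difference is made of a pregnant and a non-pregnant part. P-SF was above P-HF by 0.37 (LOX) to 0.94 (COL3A1), with a median of 0.61, and 0 of 9 were called by edgeR and 1 (COL3A1) by DESeq2 (0% of all genes were called by edgeR). For COL1A2 and COL5A2 every P-SF library was above every P-HF library, as for 1.17% of all genes. NP-SF was below NP-HF by 0.59 for COL1A1, 0.45 for COL1A2 and 0.27 for COL3A1, and the COL5A1 difference was 0.01. Without NP-HF replicate 2 these differences were -0.33, -0.22, -0.03 and 0.16, and COL5A2, COL6A1, COL6A2 and COL6A3 turned positive (0.09 to 0.20). These 3 contrasts share their libraries with the pregnancy contrasts and are not separate evidence.

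2 libraries bore on the size of these values. NP-HF replicate 2 was the highest and P-HF replicate 4 the lowest of its group for all 9 genes. Without both, a choice made after the data were seen, the HF change was -1.20 for COL1A1, -1.14 for COL1A2, -1.50 for COL3A1, -0.71 for COL6A1 and -0.75 for LOX. All 9 were still called, and the difference between the classes was 0.88 for COL1A1, 0.83 for COL1A2 and COL3A1, 0.40 for COL5A1, 0.22 for COL6A1 and 0.29 to 0.32 for the other 4. P-HF replicate 1 was highest in its group for 4 of the genes and P-SF replicate 5 lowest for 6, and without both COL3A1 had a difference between the classes of 1.51 and was called by edgeR. For COL3A1 these were the highest P-HF (2753 CPM) and the lowest P-SF library (2298 CPM). Leaving them out widens the difference by itself, so that call supports nothing.

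The endometrium is a mixture of cells, and in bulk RNA fewer cells of a type and less RNA per cell cannot be told apart. Over all 19606 genes edgeR called 2084 lower and 1997 higher in P-HF against NP-HF, beside which the marker counts here are a description. Of 9 stromal markers 4 fell in P-HF (FAP, PDGFRB, THY1 and VIM, with VIM at -0.45 and adjusted p = 0.041, edgeR), whereas DCN, the gene of decorin, was at -0.27 ± 0.14 and LUM, the gene of lumican, at -0.19 ± 0.14. PDGFRA, a fibroblast receptor gene, was at 0.41 ± 0.20, with 190 to 315 CPM in NP-HF and 257 to 431 CPM in P-HF, and was not called. Of the 9 stromal markers 8 had a negative sign in HF, with a median of -0.50, and 4 in SF, with a median of 0.06. They summed to 3781 to 5688 CPM in NP-HF and 3385 to 4266 CPM in P-HF, and to 3676 to 5580 CPM in NP-SF and 4409 to 5305 CPM in P-SF. These sums are mostly DCN, at 2403 to 3682 CPM in NP-HF and 2342 to 2687 CPM in P-HF. Epithelial markers summed to 945 to 1232 CPM in NP-HF and 1423 to 1670 CPM in P-HF, and to 867 to 1351 CPM in NP-SF and 1196 to 1483 CPM in P-SF, with 2 of 7 higher in P-HF, the adhesion genes CDH1 (0.75 ± 0.14) and CLDN4 (1.52 ± 0.30). Smooth muscle markers summed to 297 to 663 CPM in NP-HF and 278 to 492 CPM in P-HF, with 1 of 7 lower, and leukocyte markers to 73.7 to 116 and 92.9 to 135 CPM, with 2 of 7 higher. The part of these markers in the collagen difference was not tested.

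Chain ratios within 1 library, which compare reads of 2 genes of unknown length and so say nothing of chain numbers, differed in how far they moved. The log2 ratio of COL1A1 to COL1A2 had group medians of -0.99 in P-HF, -1.11 in P-SF, -0.96 in NP-HF, -1.04 in NP-IF and -1.10 in NP-SF. That of COL6A2 to COL6A1 was -0.64, -0.58, -0.80, -0.76 and -0.80 in the same order, with the highest medians in both pregnant groups. The ratio of COL3A1 to COL1A1 was 1.95, 2.02, 1.99, 2.04 and 2.25, and that of COL5A1 to COL1A1 -1.93, -1.81, -1.83, -1.69 and -1.60. COL3A1 to COL1A1 was 2.18 to 2.69 in NP-SF and 1.87 to 2.16 in NP-HF, and COL5A1 to COL1A1 -1.72 to -1.22 and -2.47 to -1.78. Both ratios divide by COL1A1, so they are not separate observations. How often ratios of other genes lie apart between these groups was not counted. The ratio of COL6A3 to COL6A1 had medians of -1.48, -1.18, -1.28, -1.10 and -1.38. The type I pair, whose genes were both lower in P-HF, differed between group medians by much less than either gene's own change.

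**Figure D3:**
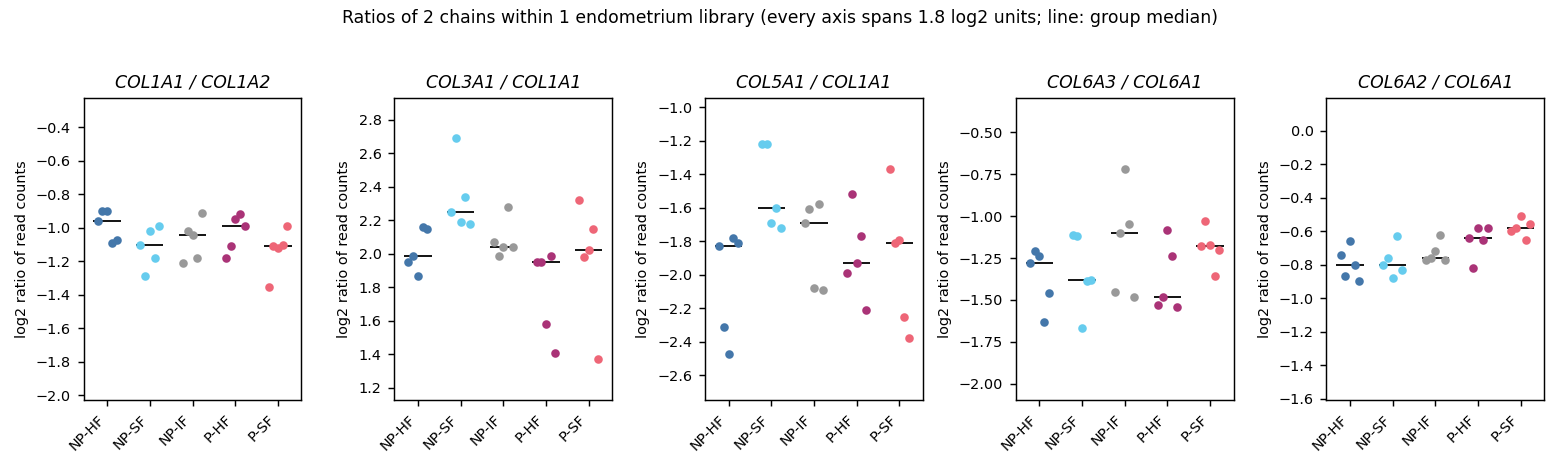
The log2 ratio of the read counts of 2 collagen genes in each endometrium library (every y axis spans 1.8 log2 units, with a line at the group median). The COL1A1 to COL1A2 ratio has medians from -1.11 to -0.96 in the 5 groups.

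Over the 25 libraries, the pairwise Pearson correlation of log2(CPM + 1) between the 9 genes was 0.77 to 0.98 in 36 pairs, with a median of 0.88. After each group's mean was subtracted it was 0.56 to 0.96, with a median of 0.74. These points share library depth and composition, and the values are a description. Among 13476 genes whose mean reached 5 CPM, those most like the mean of the 9 were AFF2 (r = 0.964), CCDC80 (0.962), DNM1 (0.960), ARHGEF25 (0.959), ADAMTS2 (0.954), LOC616111 (0.950), MRC2 (0.950), LAMA4 (0.948), B3GNT9 (0.946) and ADAM12 (0.945). CCDC80 ranged from 24.6 to 203 CPM. In the cattle assembly at hand no annotated gene lies between COL6A1 and COL6A2, or between COL5A2 and COL3A1.

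Other genes of collagen biology were taken from 11 lists of 98 genes, chosen with earlier results known. Of all genes, 20.8% were called in P-HF against NP-HF, 10.6% lower (edgeR, adjusted over all genes). Of 90 listed genes tested, 46 fell and 2 rose, with a median of -0.60. Without NP-HF replicate 2 and P-HF replicate 4, 34 were called. Among the other fibrillar chains 3 of 6 fell: COL5A3 (-1.85 ± 0.25), another type V chain, COL27A1 (-1.24 ± 0.24) and the type II chain gene COL2A1 (-1.75 ± 0.50). Of the other type VI chain genes 0 of 2 were called, with COL6A5 at 0.47 ± 0.55 and COL6A6 at -0.58 ± 0.74. Of 11 basement membrane and network collagens 8 fell, among them COL7A1 (-1 ± 0.16), COL15A1 (-1 ± 0.18) and COL4A2 (-0.86 ± 0.19), and COL18A1 was at 0.50 ± 0.18 without being called. Fibril-associated collagens had 6 of 9 lower, with COL16A1 at -0.99 ± 0.16, COL14A1 at -1.16 ± 0.23 and COL9A3 at -1.68 ± 0.40. Transmembrane and other collagens had 3 of 5 lower, with COL26A1 at -1.77 ± 0.31.

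Among the genes that fold and modify collagen in the endoplasmic reticulum, 10 of 19 fell and 1 rose. FKBP10 (-1.35 ± 0.15), a peptidyl-prolyl isomerase, CRTAP (-1.51 ± 0.20), a part of the prolyl 3-hydroxylation complex, and FKBP14 (-0.68 ± 0.09) fell, and MIA3, which helps load procollagen into vesicles, rose by 0.30 ± 0.11 (adjusted p = 0.049, edgeR). The general chaperone gene of collagen, SERPINH1, was at -0.12 ± 0.19 and the prolyl 4-hydroxylase genes P4HA1 and P4HB at 0.00 ± 0.17 and -0.16 ± 0.08. Outside the cell, 4 of 8 processing genes fell, including the procollagen proteinases BMP1 (-0.87 ± 0.14) and ADAMTS2 (-1.59 ± 0.27), as did 4 of 5 crosslinking genes, including LOXL1 (-0.86 ± 0.18), LOXL3 (-0.62 ± 0.14) and LOXL4 (-1.75 ± 0.40), relatives of LOX. Of 11 receptors 4 fell, with MRC2, which takes up collagen fragments, at -0.83 ± 0.14, and of 4 breakdown genes 3 fell, with FAP at -1.34 ± 0.14 and MMP2, a gelatinase, at -1.08 ± 0.23. In TGF-beta and SMAD signalling, which induces collagen genes in fibroblasts, TGFB2 fell by 1.21 and CTGF (also called CCN2) rose by 1.22 ± 0.27, out of 10. The stromal gene FAP stands in a marker list as well as in the breakdown list.

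In SF heifers 8 of the 90 fell and 0 rose (4.07% of all genes were called, 0.887% lower), with a median of -0.16. They were COL5A3 (-0.95 ± 0.24), COL7A1 (-0.72 ± 0.16), COL26A1 (-1.15 ± 0.30), COL23A1 (-0.93 ± 0.26), FKBP14 (-0.39 ± 0.09), CRTAP (-0.75 ± 0.19), FKBP10 (-0.56 ± 0.15) and FAP (-0.58 ± 0.14), all of which had also been called lower in HF, where the values were larger. Without P-SF replicate 5, 2 were called. The direct difference between the classes had 0 of 90 called by edgeR or DESeq2, with a median of 0.34. By edgeR 24 of the 90 had an unadjusted p under 0.05, beside 1336 of 19606 over all genes. P-SF against P-HF had 0 called by edgeR and 2 by DESeq2. There 33 of the 90 had an unadjusted p under 0.05 by edgeR, beside 1984 of 19606 over all genes. The lists were chosen with earlier results known, so these counts are a description. COL5A3 stood at 176 to 321 CPM in NP-HF and 43.0 to 97.2 CPM in P-HF, beside 82.0 to 215 CPM in P-SF.

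**Figure D4:**
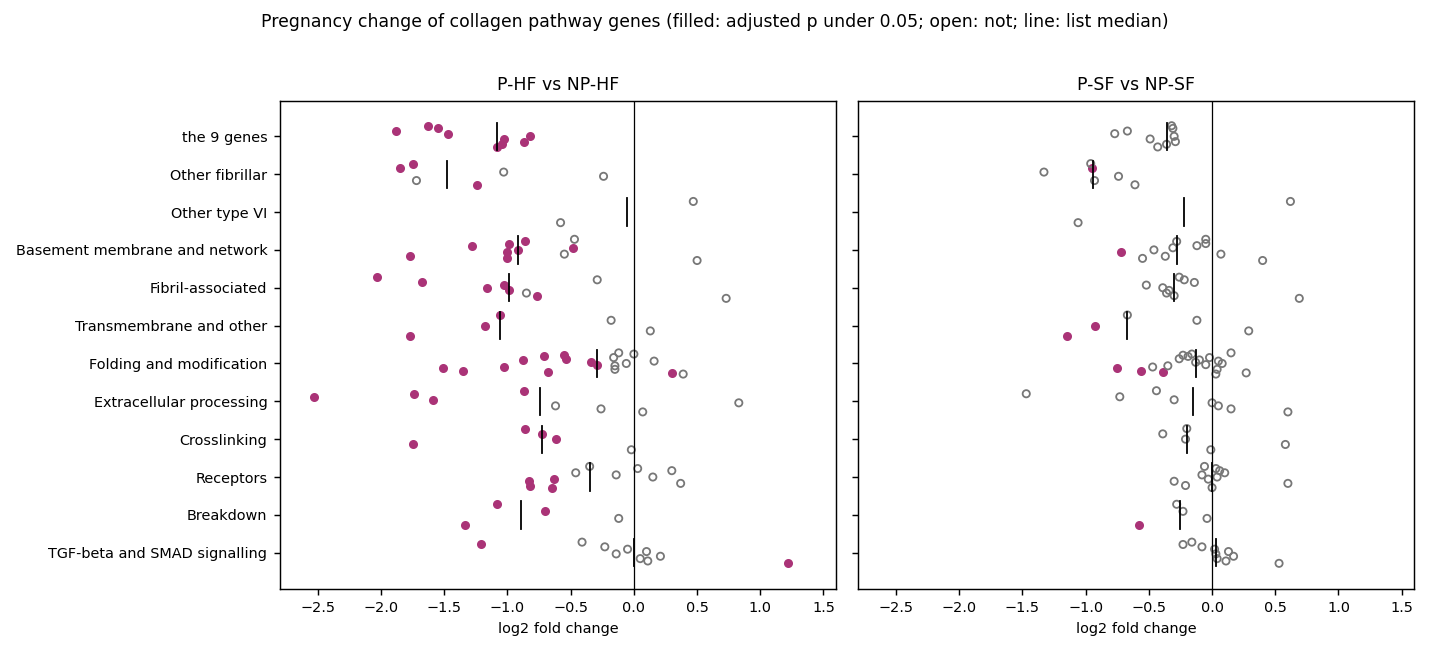
The log2 fold change (x axis) of each gene in the 9-gene group and in 11 lists of collagen biology, from non-pregnant to pregnant endometrium in HF (left) and SF heifers (right). Filled points had an adjusted p under 0.05 and open points had not. Most lists lie left of 0 in HF (median -0.60 over the 90 listed genes) and nearer to 0 in SF (median -0.16).

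Infertile heifers were present only without pregnancy. The NP-IF libraries did not enter the choice of these genes, but the NP-HF and NP-SF libraries compared with them did. Against NP-HF the 9 genes were at -0.44 (COL1A1) to -0.08 (COL5A2), all with a negative sign, and none was called by edgeR or DESeq2 or had an unadjusted p under 0.05. Over all 19606 genes 51.5% were negative, edgeR called 0 and DESeq2 2, and 1070 had an unadjusted p under 0.05 by edgeR. The 9 genes varied together (median r of 0.74 after each group's mean was subtracted), so their shared sign is not 9 observations and is a description. The 95% interval ran from -0.93 to 0.05 for COL1A1, from -0.87 to 0.10 for COL3A1 and from -0.45 to 0.29 for COL5A2. Against NP-SF the differences were -0.25 to 0.15, also with 0 called by either tool and 0 at an unadjusted p under 0.05. Over all genes edgeR called 0 there and DESeq2 11, and 784 had an unadjusted p under 0.05 by edgeR. In NP-IF COL1A1 was at 833, 1399, 1419, 950 and 1718 CPM and COL3A1 at 3508, 5543, 5850, 4629 and 7075 CPM, so that replicate 1 was lowest in both and replicate 5 highest. Without NP-HF replicate 2, the comparison with NP-HF moved to -0.18 for COL1A1, and COL5A2 and COL6A3 turned positive (0.09 and 0.10).

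Conceptuses held little RNA of these genes. The 9 genes took 0.000219% to 0.00759% of the counts. No chain gene exceeded 23.2 CPM in any library. LOX had at most 7 counts in a library and 3 or fewer in 22 of 27, under the floor of 3 counts (0.0686 to 0.156 CPM, a counting limit only), and was not tested. The basement membrane gene COL4A1, from the same lists, had medians of 362 CPM in C-HF-long and 502 CPM in C-SF.

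In long HF conceptuses COL1A1 was at 1.75 CPM at the lowest, 2.69 at the median and 18.0 at the highest, and in C-SF at 0.347, 1.62 and 4.38 CPM, with 0.963, 2.34 and 7.87 CPM in C-HF-short. COL1A2 was at 0.0896, 1.11 and 23.2 CPM in C-HF-long, 0, 0.447 and 1.31 CPM in C-SF and 0.263, 0.618 and 2.58 CPM in C-HF-short. The groups overlapped, and the highest values were in C-HF-long. COL1A2 had 2 to 654 counts per library in C-HF-long and 0 to 52 in C-SF.

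C-SF against C-HF-long was the only conceptus contrast with calls among these genes. Most C-SF conceptuses with a stated length were shorter than every C-HF-long conceptus with a stated length. Fertility class and length were therefore not separated in this contrast, and an effect of class alone was not tested. COL1A1 (-1.69 ± 0.52, adjusted p = 0.040) and COL1A2 (-3.16 ± 0.94, adjusted p = 0.037) fell by edgeR's test over 16330 genes, 2 of 8 tested, where 5.1% of all genes were called lower (8.9% in either direction). All 8 had a negative sign, with a median of -1.43 beside 0.03 over all genes: COL3A1 -2.32 (adjusted p = 0.15), COL5A2 -2.59 (0.13), COL6A3 -1.17 (0.078), COL6A1 -0.88, COL6A2 -0.69 and COL5A1 -0.35. DESeq2 called 3 of the 8, with COL6A3 at -1.18 (adjusted p = 0.041). Both calls were lost with 1 conceptus per heifer and group, at -1.59 (adjusted p = 0.11) and -2.97 (adjusted p = 0.12). The second sample sheet held no long conceptus, and without the sheet in the fit COL1A1 was at -1.24 (adjusted p = 0.12). Both calls were lost as well without C-HF-long replicate 9, at -1.15 (adjusted p = 0.13) and -2.34 (adjusted p = 0.11). 0 of 8 were called also without C-HF-long replicate 8 or C-SF replicate 2, 4, 6 or 7, and 1 without C-HF-long replicate 3 or C-SF replicate 3 or 5. The long conceptus of replicate 9 had a collagen sum of 74.7 CPM, beside 2.35 to 36.9 CPM in the other 26, while its 8 uterine markers summed to 0.249 CPM. In endometrium the same markers summed to 271 to 595 CPM, and in conceptuses to 0.0661 to 25.4 CPM.

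**Figure D5:**
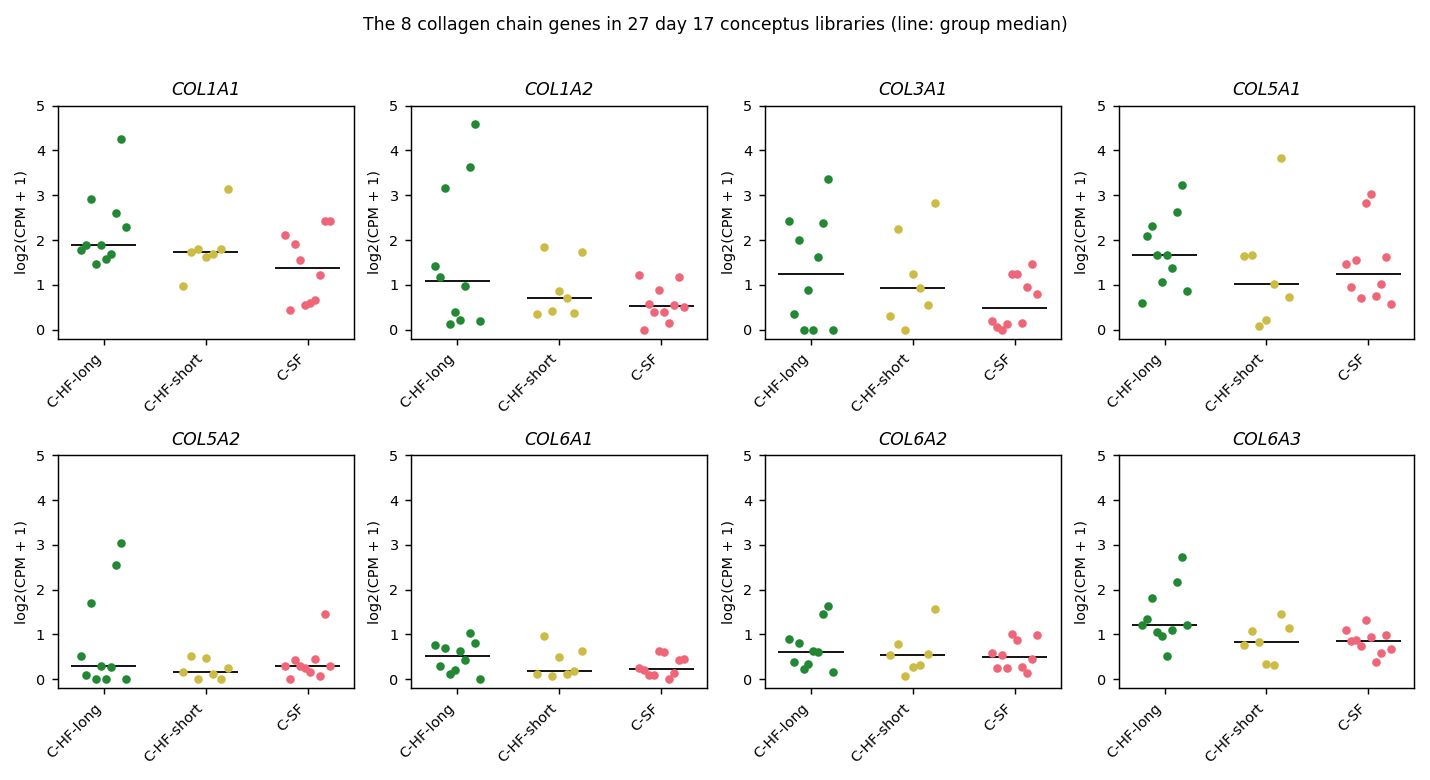
The log2(CPM + 1) of the 8 collagen chain genes in 27 conceptus libraries by group (line at the group median, same axis in each panel). C-HF-long replicate 9 is the highest point of its group in 7 of the 8 panels.

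Short conceptuses were compared with both other groups. C-SF against C-HF-short gave 0 of 8 called (0.00612% of all genes were called, 0 of the 8 at an unadjusted p under 0.05, 0 by DESeq2), with intervals such as -1.38 to 0.78 for COL1A1. C-HF-short against C-HF-long gave 0 of 8 as well (0 by DESeq2), where edgeR called 0 of all 16330 genes and DESeq2 13. By edgeR 3 had an unadjusted p under 0.05, beside 599 of 16330 over all genes: COL1A1 (-1.40 ± 0.61), COL1A2 (-2.34 ± 1.08) and COL5A2 (-3.64 ± 1.29). Without the sample sheet in the fit they were at -0.70, -2.20 and -3.12. In a fit within the 4 heifers that gave both kinds, also without the sample sheet, COL1A1 was at -0.27 and COL1A2 at -0.73. COL5A2 did not pass the filter there. In 4 heifers that gave a long and a short conceptus, COL1A1 was lower in the short one in 2 (2.34 against 6.52 CPM, and 2.49 against 5.04) and higher in 2 (2.48 against 1.75, and 7.87 against 3.93). COL6A3 was lower in the short one in all 4 (1.11 against 2.53 CPM, 0.768 against 1.08, 1.75 against 3.54 and 1.22 against 1.31, the last at 33 against 35 counts). COL5A1 and COL6A2 were lower in 3 of 4. How many of all genes were lower in all 4 was not counted, and some of these pairs were on different sample sheets. A slope on length was fitted over the 20 conceptuses with a stated length, SF and HF together. The fit had no term for fertility class, so length and class were not separated. The slope per doubling was 0.03 (COL6A1) to 0.78 (COL5A2), all positive with the sample sheet in the fit. Of the 8, 0 were called by edgeR or DESeq2, where edgeR called 0 of all 16769 genes and DESeq2 33. By edgeR 1 (COL6A3, 0.57 ± 0.24) had an unadjusted p under 0.05, beside 1878 of 16769 over all genes.

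The collagen lists in conceptuses had 3 of 69 called in C-SF against C-HF-long, where 8.9% of all genes were called. Fertility class and length were not separated there either. The basement membrane gene COL18A1 (0.58 ± 0.18) and the collagen chaperone gene SERPINH1 (0.58 ± 0.15) were higher. TGFB3, a TGF-beta ligand, was lower (-2.90 ± 0.62, from 1.3, 11.8 and 68.5 CPM at the lowest, median and highest to 0.606, 2.62 and 3.58 CPM). Among 9900 genes in conceptuses those most like the mean of the 9 were GPLD1 (r = 0.777), MARCH8 (0.758), C15H11orf34 (0.754), FAM167A (0.748), IRS1 (0.741), CDC42EP4 (0.737), NAV2 (0.726), PCNX (0.720), HEG1 (0.720) and SPTAN1 (0.718), over 27 libraries in which most of the 9 had few counts.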

How the data were processed

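The authors deposited whole-number read counts of genes without normalization, with 31651 named rows; 1020 blank lines were left out. Per the submitters' processing notes, HISAT2, StringTie and edgeR were used with genome build UMD3.1; no version or strand setting is stated in these sources. Per the labels' protocols the kit marked strand, and RNA came from endometrium and conceptuses by different reagents, so the tissues were not tested against each other. Coordinates and sequences were not used here; names and neighbours came from a RefSeq table of ARS-UCD2.0. For 21 conceptuses the description named another animal or a length at least 1 cm off the title; titles were used. Endometrium libraries carry separate animal numbers, whereas some conceptuses share a recipient heifer, so that p-values over conceptuses may be too small.

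Genes were filtered with filterByExpr (minimum count 10, minimum total 15), scaled by TMM and tested with edgeR 4.0.16 in R 4.3.3 (quasi-likelihood, Benjamini-Hochberg over all genes, called under 0.05), with DESeq2 1.42.0 as an alternative. Other alternatives were RLE size factors, no filter, only the groups compared, libraries left out, no sample sheet, 1 conceptus per heifer and a block on the recipient heifer (without the sample sheet). The 25 endometrium libraries were fitted together (19606 genes) and the conceptuses in 3 groups (16330 genes) or with log2 length (16769 genes), each with the sample sheet (20 libraries on the first, 7 on the second, none long) as a covariate. CPM are counts scaled to the TMM library size. The code was tested on simulated data. The 9 genes and the lists (11 of collagen biology, and 11 marker lists) were chosen with earlier results of these data known. Of the marker lists, those not given in the report had in P-HF against NP-HF these called counts: endothelial 2 of 7 lower, red blood cell 0 of 1, trophectoderm 2 of 5 lower, mesoderm 1 higher and 1 lower of 5, endoderm 1 of 5 higher, epiblast 0 of 2 and uterine markers 4 of 8 lower. Over all 19606 genes 2084 were called lower and 1997 higher there. Named genes were all 9, up to 3 called genes per collagen list with the smallest p, and the 10 most similar genes whose mean reached 5 CPM; DCN, LUM, PDGFRA, COL6A5, COL6A6, COL4A1, COL18A1, SERPINH1, P4HA1, P4HB and MIA3 were named after their values were seen, as were the markers. The pairing of conceptuses came from their recipient heifers: the long and the short of a heifer deviated together in 3 of 4 heifers (r = 0.70, 0.53, 0.57 and -0.09 over 9019 genes).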

Additional observations from a re-analysis of the deposited data

Results flagged for a closer look

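In groups of 5, 7 or 10 libraries, 72 gene and group combinations were tested for a library far from the others, and 9 were found. The cut-off gives about 1 in 20 for independent, normally distributed values. CPM of few counts are skewed and the genes vary together, so the 9 are not read against that rate. In endometrium COL1A1 in NP-HF replicate 2 was at 2853 CPM, beside 1187 to 1571 CPM in the other 4. In long HF conceptuses replicate 9 stood out for COL1A1 (18.0 CPM, others 1.75 to 6.52), COL1A2 (23.2 CPM, others 0.0896 to 11.3) and COL3A1 (9.37 CPM, others 0 to 4.41), and LOX in replicate 7 was at 0.214 CPM (others 0 to 0.071), which rests on 6 counts. In short HF conceptuses replicate 7 stood out for COL1A1 (7.87 CPM, others 0.963 to 2.49) and COL6A2 (1.96 CPM, others 0.0591 to 0.738), and replicate 6 for COL5A1 (13.3 CPM, others 0.0591 to 2.18). In SF conceptuses COL5A2 was at 1.75 CPM in replicate 9 (others 0 to 0.365), the library with the highest sum of uterine markers (25.4 CPM). Those markers did not go together: in C-SF libraries OXTR reached 17.9 CPM, whereas HOXA10, HOXA11 and HOXD10 reached at most 0.195, 0.0973 and 0.0236 CPM.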

How the results depend on the processing

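All 9 genes were lower in P-HF than in NP-HF in each of 16 alternatives, and 9 were called in each. In SF heifers 0 of the 9 were called, 1 by DESeq2 (leaving out 1 library: 0 to 1), and 8 listed collagen genes, 4 with only the groups compared and 3 without P-HF replicate 1 and P-SF replicate 5 (leaving out 1 library: 2 to 8). The difference between the classes had 0 called, and without those 2 libraries 1 of the 9 and 1 listed gene. Those 2 were the highest P-HF and the lowest P-SF library for COL3A1, so leaving them out widens its difference by itself. P-SF against P-HF had 0 of each; DESeq2 gave 1 and 2, and leaving out those 2 libraries 2 and 7 (leaving out 1 library: 0 to 1 and 0 to 3). In C-SF against C-HF-long the 2 called became 3 by DESeq2, 1 without the filter, 1 without the sample sheet and 0 with 1 conceptus per heifer (leaving out 1 library: 0 to 2), and the 3 listed genes 9 by DESeq2 and 5 without the sheet (leaving out 1 library: 2 to 9). In C-SF against C-HF-short the 0 listed genes became 3 with RLE size factors, 6 by DESeq2 and 3 without the sheet. Counts over all genes ranged from 2523 to 4653 (P-HF, 4081), 425 to 1200 (P-SF, 798), 0 to 45 (difference between classes, 1), 0 to 634 (P-SF against P-HF, 0), 629 to 2150 (C-SF against C-HF-long, 1454), 1 to 137 (C-SF against C-HF-short, 1), 0 to 13 (C-HF-short against C-HF-long, 0), 0 to 377 (length, 0), 0 to 1 (NP-SF against NP-HF, 0), 0 to 2 (NP-IF against NP-HF, 0) and 0 to 11 (NP-IF against NP-SF, 0). The cause was not tested.

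Signs changed for small values. With 1 library left out in turn, NP-IF against NP-HF ranged between -0.20 and 0.09 for COL5A2 and between -0.29 and 0.10 for COL6A3, and without NP-HF replicate 2 and P-HF replicate 4 the values were 0.09 and 0.10. In the same way NP-IF against NP-SF ranged between -0.24 and 0.01 for COL3A1, -0.13 and 0.10 for COL5A2, -0.18 and 0.04 for COL6A3, and -0.22 and 0.12 for LOX. The length slope without the sample sheet was -0.02 for COL1A1 and -0.03 for COL3A1. The replicate block of the recipient heifer covered 8 libraries of 4 heifers. There C-HF-short against C-HF-long had 0 of the 7 chain genes left after the filter called. COL3A1 was at 0.54, COL6A1 at 0.13 and COL6A2 at 0.02, each of which was negative in the main fit. COL1A1 was at -0.27, COL1A2 at -0.73, COL5A1 at -0.77 and COL6A3 at -0.73. The block fit had fewer libraries and no sample sheet term. In some heifers the long and the short conceptus were on different sheets, so pairing, sheet and choice of libraries were not separated. The block changed no call. Endometrium has no paired analysis, since no number joins its groups. Conceptus values of a few counts limit any fold change there.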
